A study of Mus musculus with 18 samples.

Results

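The mevalonate arm of cholesterol synthesis is the run of enzymes that turns acetyl-CoA into squalene. The genes described here are named by their place in the pathway: Acat2, Hmgcs1, Mvk, Pmvk, Mvd, Idi1, Fdps, Fdft1 and the branch enzyme Ggps1. Of these 9 genes, 8 had a named probe set, against 18193 genes with one in the whole data set, and all 8 were bright enough to test, as were 12578 genes in all. Acat2 is not analysed here. Livers came from male mice 12 weeks old in which every animal, controls included, carried POR-lox+/+, the floxed alleles of the P450 reductase gene. Control mice were Alb-Cre-/- and knockout mice Alb-Cre+/-, with Cre driven by the albumin promoter, which directs deletion to hepatocytes. From 4 weeks of age both genotypes ate, for 8 weeks, a diet whose fat was lard, canola oil or a fish/fungal mixture (3.27% ARASCO oil with 2.73% menhaden oil), and they were fasted for 4 h before the liver was taken. All diets contained 0.025% cholesterol and 0.008% sodium cholate, and total fat is given as 7% by the sample labels and 6% by the series text. Each of the 18 arrays held RNA pooled from 3 livers, and there were 3 pools, from 9 mice, in every one of the 6 groups. P-values therefore reflect the spread between pools, not between mice.

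The pathway starts in the cytosol with condensation of acetyl-CoA to acetoacetyl-CoA (Acat2) and to HMG-CoA (Hmgcs1). Mevalonate is phosphorylated by Mvk and Pmvk, decarboxylated by Mvd to isopentenyl diphosphate, and isomerised by Idi1. Fdps then joins the 5-carbon units into farnesyl diphosphate, which Fdft1 commits to squalene and Ggps1 extends to geranylgeranyl diphosphate for protein prenylation. In liver the transcription factor SREBP-2 raises these genes when sterols in the endoplasmic reticulum run low, with NF-Y and Sp1 bound nearby, and polyunsaturated fatty acids are known to restrain SREBP-1. P450 reductase donates electrons to squalene epoxidase and to lanosterol demethylase, both of which act after squalene.

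Promoters are shown because several of these genes moved together, and because 2 that passed the main diet test (Hmgcs1 and Idi1) can be set beside 2 that did not (Mvk and Ggps1). The 250 bases before the transcription start are from RefSeq, mouse build GRCm38.p6, written 5′ to 3′ on the gene's strand. They lie at chr13:119690101-119690350 on the plus strand for Hmgcs1, at chr13:8885356-8885605 (plus) for Idi1, at chr5:114444019-114444268 (plus) for Mvk and at chr13:14063489-14063738 (minus) for Ggps1. Capitals mark the SREBP site TCACNCCAC and the NF-Y box CCAAT, searched on both strands, so that ATTGG is an NF-Y box read from the other strand.
Hmgcs1: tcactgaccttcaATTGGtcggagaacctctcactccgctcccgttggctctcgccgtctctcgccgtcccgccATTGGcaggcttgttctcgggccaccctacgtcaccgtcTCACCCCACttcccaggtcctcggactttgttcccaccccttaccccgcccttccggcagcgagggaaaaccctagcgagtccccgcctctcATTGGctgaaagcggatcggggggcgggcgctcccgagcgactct
Idi1: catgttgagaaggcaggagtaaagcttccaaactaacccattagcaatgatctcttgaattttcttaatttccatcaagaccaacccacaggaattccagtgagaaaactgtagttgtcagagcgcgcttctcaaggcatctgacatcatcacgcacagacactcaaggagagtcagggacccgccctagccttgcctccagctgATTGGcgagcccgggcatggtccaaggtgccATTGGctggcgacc
Mvk: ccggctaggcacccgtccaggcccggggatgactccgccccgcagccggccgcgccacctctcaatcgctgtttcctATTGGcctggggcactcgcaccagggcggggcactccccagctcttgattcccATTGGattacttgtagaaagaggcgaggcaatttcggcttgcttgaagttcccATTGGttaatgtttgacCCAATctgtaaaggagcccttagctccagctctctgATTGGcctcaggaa
Ggps1: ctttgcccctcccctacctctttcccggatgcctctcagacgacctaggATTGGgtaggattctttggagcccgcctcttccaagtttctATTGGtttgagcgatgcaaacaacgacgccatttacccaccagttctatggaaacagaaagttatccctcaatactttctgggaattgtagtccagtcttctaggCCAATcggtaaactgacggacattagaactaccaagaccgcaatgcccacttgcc
The SREBP site occurred once among the 7 members with a RefSeq window, in Hmgcs1 as TCACCCCAC at -137 to -129 from the start. It was found in 1.24% of all 32851 windows of 300 bases, which run from 250 bases before the start to 50 after it. The NF-Y box was present in 6 of the 7 members (Ggps1, Hmgcs1, Idi1, Mvd, Mvk and Pmvk). Pmvk has a second window without the box, so that 6 of the members' 8 windows held it, against 37.4% of all windows. Mvk held 5 such boxes in the stretch printed above, and Ggps1 held 3. The Sp1 box GGGCGG was present in 5 of the 7 members and 5 of the 8 windows, against 35.7% of all windows. The nuclear receptor motif TGACCT was present in Hmgcs1 alone, against 16.3%. The marked letters do not overlap one another in the promoters printed. These matches describe letters in a window, not binding. Fdps and Fdft1 were without a window in the table used.

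Values are the authors' RMA expression levels on the log2 scale, where a difference of 1 is a 2-fold change. Changes are log2 differences between group means from a single limma fit, with p adjusted over all genes tested, and levels are not comparable between genes. The medians of the arrays ran from 5.229 to 5.286, and within groups arrays correlated at 0.9928 to 0.9969. The mean level of 8 hepatocyte marker genes was between 13.14 and 13.51 on every array. The deleted gene is not analysed here, which leaves the genotype labels without a check on their target. In whole liver, fewer cells of a type and less RNA per cell cannot be told apart.

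The first question was what the source of dietary fat does to the pathway. With the genotypes averaged, livers on the fish/fungal diet had less mRNA of Fdps, Idi1, Pmvk, Hmgcs1 and Fdft1 than livers of mice fed lard. Fdps and Idi1 also passed the test in each genotype alone. Fdps, which makes farnesyl diphosphate, was 6.16-fold lower and Idi1, the isomerase before it, 4.18-fold lower. Pmvk and Hmgcs1 were 2.16-fold and 2.1-fold lower, and Fdft1, squalene synthase, 1.31-fold lower. These 5 of 8 genes passed the test (limma, adjusted p under 0.05, both genotypes averaged), where 1.78% of all tested genes were called lower. Mvk, Mvd and Ggps1 did not pass. The median change of the 8 genes was -0.73 on the log2 scale, against 0 over all genes tested. All 8 had an unadjusted p under 0.05, as did 13.1% of all genes.

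**Figure D1:**
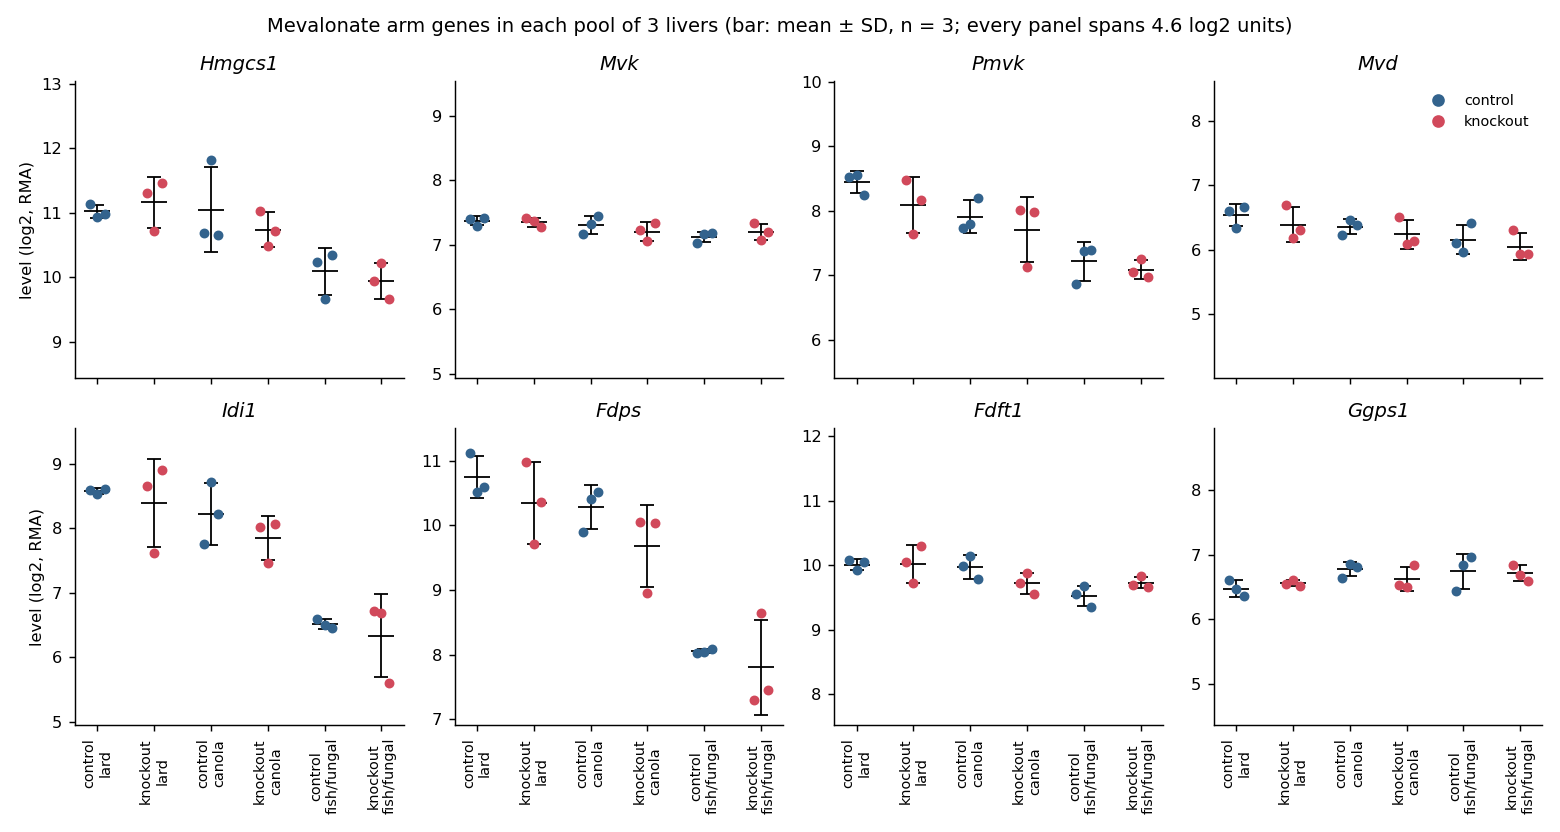
Log2 level of the 8 genes (vertical axis) in every pool of 3 livers, by genotype and diet (horizontal axis). Points are pools, horizontal bars the mean and error bars the SD of 3 pools, and every panel spans the same log2 range. Fdps falls from between 9.71 and 11.12 in the lard groups to between 7.29 and 8.65 in the fish/fungal groups, whereas Ggps1 stays between 6.35 and 6.96 on all arrays.

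The first condensing enzyme measured, Hmgcs1, had levels of 11.13, 10.94 and 10.98 in the 3 control pools fed lard and 11.30, 10.71 and 11.46 in the knockout pools fed lard. On the fish/fungal diet the levels were 10.24, 9.67 and 10.35 in controls and 9.94, 10.22 and 9.67 in knockouts. Every fish/fungal pool lay below every lard pool. The averaged log2 change was -1.07 ± 0.19 (SE; limma, adjusted p = 0.0038). On canola the controls were at 10.69, 11.81 and 10.65, and the knockouts at 11.03, 10.49 and 10.71. One canola control, replicate 2, was the highest of all 18 arrays, and the other 5 canola pools, between 10.49 and 11.03, also lay above all fish/fungal pools. In order of their means, neighbouring groups overlapped from knockout lard (11.16 ± 0.40, SD, n = 3) down to knockout canola (10.74 ± 0.27), and the single gap was between knockout canola and control fish/fungal (10.09 ± 0.36).

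The kinases and the decarboxylase did not move alike. Pmvk, which adds the second phosphate to mevalonate, stood at 8.52, 8.55 and 8.24 in lard controls and at 8.48, 7.64 and 8.16 in lard knockouts. Its fish/fungal levels were 6.87, 7.38 and 7.40 in controls and 7.05, 7.26 and 6.97 in knockouts, again all below the lard pools. The averaged change was -1.11 ± 0.16 (adjusted p = 9e-04). On canola, Pmvk was 7.73, 7.80 and 8.20 in controls and 8.02, 7.13 and 7.98 in knockouts, so that knockout canola replicate 2 lay inside the fish/fungal range and the others lay above it. Mvk, the first kinase, ranged only from 7.02 to 7.45 over the 18 arrays. Its averaged change of -0.20 ± 0.07 did not pass (adjusted p = 0.2), with a 95% interval from -0.34 to -0.05. Mvd, the decarboxylase, ranged from 5.93 to 6.70 and changed by -0.36 ± 0.11 (interval -0.59 to -0.12, adjusted p = 0.12). Lard and fish/fungal pools overlapped in both genotypes for Mvd and in knockouts for Mvk. The intervals of Mvk and of Pmvk (-1.46 to -0.76) did not overlap.

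Idi1 and Fdps, the consecutive enzymes between isopentenyl and farnesyl diphosphate, had the largest changes among the 8. Idi1 was at 8.60, 8.54 and 8.61 in lard controls and at 8.66, 7.62 and 8.90 in lard knockouts. The fish/fungal levels were 6.60, 6.50 and 6.45 in controls and 6.72, 6.69 and 5.60 in knockouts. The lowest lard pool, knockout replicate 2, was still above the highest fish/fungal pool. The averaged change of Idi1 was -2.06 ± 0.22 (adjusted p = 3.5e-05). On canola its levels were 7.76, 8.72 and 8.22 in controls and 8.02, 7.46 and 8.07 in knockouts, and none of these reached down to the fish/fungal pools.

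Fdps was at 11.12, 10.52 and 10.60 in lard controls and at 10.98, 9.71 and 10.36 in lard knockouts. On the fish/fungal diet it was at 8.03, 8.04 and 8.09 in controls and at 7.29, 8.65 and 7.45 in knockouts. The 3 fish/fungal controls differed by less than any other group did, and the fish/fungal knockouts were the most spread (7.80 ± 0.74, against 8.05 ± 0.03 in controls). The averaged change was -2.62 ± 0.25 (adjusted p = 9.2e-06), the 4th lowest of the 12578 genes tested, and Idi1 ranked 10th. On canola Fdps was 9.90, 10.41 and 10.52 in controls and 10.06, 8.96 and 10.04 in knockouts. For Fdps and Idi1 alike, groups ordered by their means overlapped with their neighbours from control lard down to knockout canola, then came a gap, and the fish/fungal genotypes overlapped with each other.

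At the branch after farnesyl diphosphate, the sterol and the non-sterol enzyme had different values. Fdft1, on the sterol side, was at 10.08, 9.92 and 10.05 in lard controls and at 10.05, 9.73 and 10.29 in lard knockouts. On the fish/fungal diet it was at 9.55, 9.67 and 9.35 in controls and at 9.70, 9.83 and 9.66 in knockouts. The control pools of the diets did not overlap, while lard knockout replicate 2 lay among the fish/fungal knockouts. The averaged change of -0.39 ± 0.10 passed narrowly (adjusted p = 0.037). The call was lost without any 1 of 10 arrays: control lard replicates 1, 2 and 3, knockout lard 1 and 3, knockout canola 1, control fish/fungal 1 and 3, and knockout fish/fungal 1 and 3. The adjusted p in these fits ran from 0.051 to 0.11. Fdft1 was 9.98, 10.14 and 9.79 in canola controls and 9.73, 9.88 and 9.56 in canola knockouts. Ggps1, on the prenylation side, was the single member with a value above 0. It went from 6.60, 6.47 and 6.35 in lard controls to 6.44, 6.83 and 6.96 in fish/fungal controls, and from 6.55, 6.61 and 6.51 to 6.84, 6.69 and 6.59 in knockouts. Its change of 0.21 ± 0.09 did not pass (interval 0.02 to 0.40, adjusted p = 0.31), and its interval did not overlap that of Fdft1 (-0.59 to -0.19). These intervals rest on 1 probe set per gene. Other Ggps1 probe sets were at 0, 0.06 and 0.01, and other Fdft1 probe sets at -0.51, -0.01 and -0.01. The difference between the genes was not tested.

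In all, Hmgcs1, Pmvk, Idi1 and Fdps had every fish/fungal pool below every lard pool in both genotypes, a pattern seen in 2.11% of all genes tested. The plot of control against knockout changes shows the diet effect in each genotype. Fdps changed by -2.69 in controls (adjusted p = 6e-04) and by -2.55 in knockouts (0.002). Idi1 changed by -2.07 (0.0023) and -2.06 (0.0047). Pmvk passed in controls (-1.22, 0.015) and had a value of -1.0 in knockouts (0.071). Hmgcs1 passed in neither genotype alone, at -0.93 (0.18) and -1.22 (0.055). Within a genotype, 0.62% of genes were called lower in controls and 0.421% in knockouts. Pmvk lost its call in controls without lard replicate 1, lard replicate 2 or fish/fungal replicate 1 (adjusted p 0.066, 0.088 and 0.095). Idi1 lost its call in knockouts without knockout lard replicate 1 (0.053), and with only the groups compared in the fit both Idi1 (0.085) and Fdps (0.06) lost theirs there, at the same log2 changes. Without knockout lard replicate 2, the count in knockouts rose from 2 to 4, as Hmgcs1 (0.027) and Pmvk (0.024) also passed. Pmvk passed there without knockout canola replicate 2 as well (0.028), and Hmgcs1 without control canola replicate 2 (0.0099) or 3 (0.049), control fish/fungal replicate 2 (0.048) or knockout fish/fungal replicate 2 (0.044). In controls Hmgcs1 passed without control canola replicate 2 (0.045) and with only the groups compared (0.033).

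**Figure D2:**
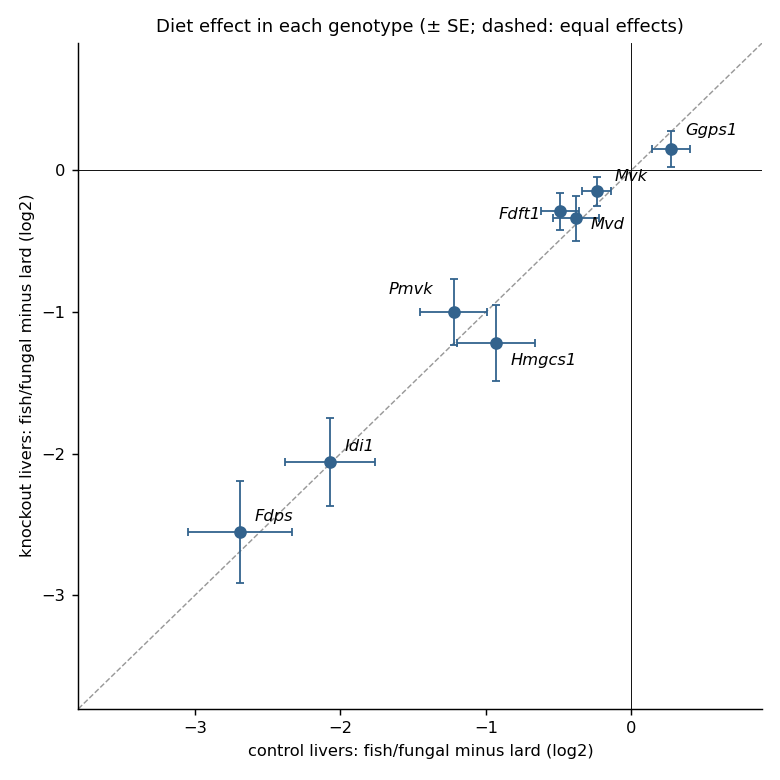
Log2 change from lard to the fish/fungal diet in control livers (horizontal axis) and in knockout livers (vertical axis), each from 3 pools against 3. Points are genes, bars the SE, and the dashed line marks equal changes. Fdps (-2.69 and -2.55) and Idi1 (-2.07 and -2.06) lie farthest from 0, and all 8 genes lie near the line.

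The difference between the genotypes' diet effects was tested directly. For fish/fungal against lard it was 0.14 for Fdps, with a 95% interval from -0.91 to 1.20, and 0.01 for Idi1 (-0.93 to 0.95). The knockout by diet F test called 0 of the 8 members and 0 of 12578 genes, or 0% (limma; 242 genes, 1.92%, had an unadjusted p under 0.05, none of them members). Fdft1 had the smallest p of the members (0.085 unadjusted). Its knockout-minus-control difference was -0.25 on canola and 0.21 on the fish/fungal diet, and these differed by 0.45 (interval 0.05 to 0.86; unadjusted p = 0.029, adjusted p = 1). The intervals of Fdps and Idi1 are wide enough to hold a difference of nearly 1 log2 unit either way.

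**Figure D3:**
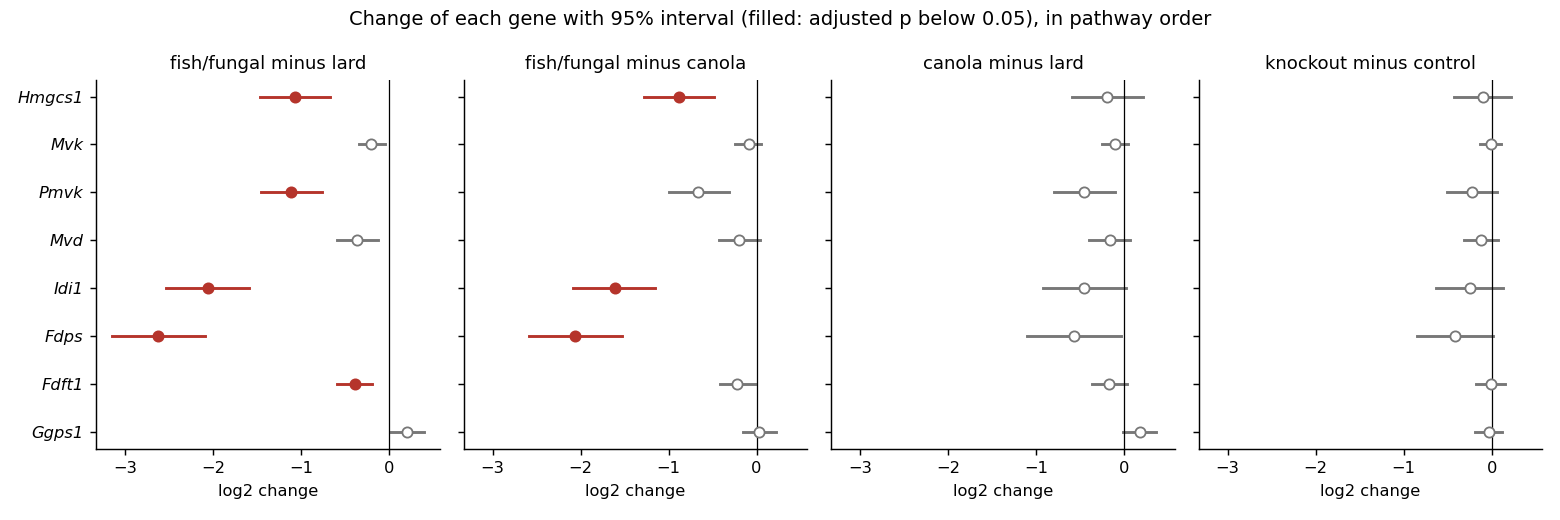
Log2 change (horizontal axis) of the 8 genes in pathway order (vertical axis) for the 3 diet comparisons averaged over genotypes and for knockout minus control averaged over diets. Points are estimates, lines 95% intervals, and filled points have an adjusted p under 0.05. The called genes number 5 for fish/fungal minus lard, 3 for fish/fungal minus canola and 0 in the other panels.

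Against canola oil, which like the fish/fungal oils is rich in unsaturated fat, the fish/fungal diet again gave lower Fdps (-2.06 ± 0.25, adjusted p = 0.00024), Idi1 (-1.61 ± 0.22, 0.00088) and Hmgcs1 (-0.88 ± 0.19, 0.031). These 3 of 8 members were called where 0.692% of all genes were called lower. The comparison uses the same fish/fungal arrays as the one against lard, so the results are not independent. Pmvk was at -0.66 ± 0.16 (adjusted p = 0.068), and Fdft1 at -0.22 ± 0.10 (0.43). Mvd was at -0.20 (interval -0.43 to 0.04), Mvk at -0.09 (-0.24 to 0.05) and Ggps1 at 0.03 (-0.15 to 0.22). Hmgcs1, Idi1 and Fdps were also the members whose fish/fungal pools all lay below the canola pools in both genotypes, as did 1.22% of all genes. Hmgcs1 lost its call in 7 of 28 alternative fits. These included the fits without knockout canola replicate 1 (adjusted p = 0.091) or 3 (0.069), control fish/fungal replicate 2 (0.082), or knockout fish/fungal replicate 1 (0.067) or 3 (0.063). Pmvk gained a call without knockout lard replicate 2 (0.045) or knockout canola replicate 2 (0.011), and with arrays centred on their medians (0.045).

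Within genotypes, Fdps changed from canola to fish/fungal by -2.22 in controls (adjusted p = 0.0064) and -1.89 in knockouts (0.042), and Idi1 by -1.72 (0.022) and -1.51 (0.084). That is 2 of 8 members in controls and 1 in knockouts, where 0.223% and 0.127% of all genes were called lower. In controls, Idi1 lost its call without canola replicate 2 or 3 or any of the 3 fish/fungal pools (adjusted p 0.06 to 0.14), and Fdps sat at the threshold (0.05) without canola replicate 3. In knockouts, Fdps lost its call without any 1 of 13 arrays, which were all but control lard replicate 1, knockout lard 1 and 2, knockout canola 2 and knockout fish/fungal 2. The highest adjusted p was 0.30, without knockout canola replicate 3, and the change ran from -1.89 to -1.64 in these fits. Idi1 passed in knockouts without knockout lard replicate 2 (0.029).

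Between canola oil and lard, a comparison that shares its arrays with those above, 0 of the 8 members passed. No gene of the 12578 was called (0%; limma), while 852 genes (6.77%) and 2 members had an unadjusted p under 0.05. The values were -0.57 for Fdps (interval -1.10 to -0.04), -0.45 for Pmvk (-0.80 to -0.10) and -0.45 for Idi1 (-0.92 to 0.02). Hmgcs1 was at -0.19 (-0.59 to 0.21), Fdft1 at -0.17 (-0.37 to 0.03), Mvd at -0.16 (-0.40 to 0.07), Mvk at -0.10 (-0.25 to 0.04) and Ggps1 at 0.18 (-0.01 to 0.36). A p that misses the threshold does not show equal levels, and the Fdps interval reaches a fall of more than 1 log2 unit. The Hmgcs1 value in controls (0.03) turned to -0.35 when canola replicate 2, the high array named above, was left out.

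Loss of P450 reductase in hepatocytes gave no called change in the mevalonate arm. Averaged over the 3 diets (9 pools per genotype), 0 of 8 members passed, where 4.57% of all genes did, and 0 of 8 had an unadjusted p under 0.05 (18% of all genes). The median was -0.11, against 0 for all genes. The values were -0.42 for Fdps (interval -0.85 to 0.02, adjusted p = 0.3), -0.25 for Idi1 (-0.63 to 0.13), -0.22 for Pmvk (-0.51 to 0.06) and -0.12 for Mvd (-0.31 to 0.07). Hmgcs1 was at -0.10 (-0.43 to 0.22), Ggps1 at -0.03 (-0.19 to 0.12), Mvk at -0.01 (-0.13 to 0.11) and Fdft1 at -0.01 (-0.18 to 0.15). The values of Hmgcs1, Mvk and Fdft1 had no settled sign, reaching 0.02, 0.02 and 0.04 with 1 array left out. The intervals of this averaged effect leave room for a fall of Fdps to 1.8-fold. They bound the averaged change of Mvk, Fdft1 and Ggps1 within about 0.2 log2 units. Within single diets the intervals were wider, such as -0.53 to 0.04 for Fdft1 on canola and -0.08 to 0.49 on fish/fungal. A second Idi1 probe set, dimmer than the one used, was at -0.53 ± 0.21 in the averaged effect. It was not called either (limma, adjusted p = 0.27 over all probe sets).

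Within single diets, the knockout minus control values were again all uncalled, against 0.986% of genes on lard, 0.0636% on canola and 0.294% on fish/fungal. Fdps was at -0.40 on lard, -0.59 on canola and -0.26 on fish/fungal. Idi1 was at -0.19, -0.38 and -0.18, and Pmvk at -0.34, -0.20 and -0.12. Hmgcs1 was at 0.14, -0.31 and -0.14. Several of these values took the other sign without 1 array. Hmgcs1 on canola became 0.07 without control canola replicate 2, and Hmgcs1 on lard -0.01 without knockout lard replicate 3. Idi1 became 0.20 on lard without knockout lard replicate 2 and 0.19 on fish/fungal without knockout fish/fungal replicate 3, and Pmvk on canola 0.09 without knockout canola replicate 2. Fdps on lard ran from -0.71 to -0.08 with 1 array left out. Genotypes overlapped on each diet for every member. Averaged over the 3 diets, 4 of 9 Kupffer cell and macrophage markers were called higher in knockouts (C1qa, C1qb, Cd68 and Lyz2, by 0.40 to 0.54). Of all genes, 4.57% were called there in either direction. Within diets, 2 of the 9 were called higher on lard, 0 on canola and 0 on fish/fungal. The mean level of the 9 ranged from 8.78 to 9.44 on control arrays and from 9.06 to 10 on knockout arrays. In the same averaged effect, the stellate cell and fibroblast list had 0 of 8 called by limma (median 0.32). In that list 5 had an unadjusted p under 0.05, as did 18% of all genes. Of 5 pancreatic acinar markers tested, 1, Cela1, was called lower (-0.57, adjusted p = 0.018). The part of these markers in the member values was not tested. In fish/fungal against lard none of the 9 cell type marker lists had a called gene, while in fish/fungal against canola 1 of 9 macrophage markers, Lyz2, was called higher (0.65, adjusted p = 0.037). All 9 were above 0 in that comparison (median 0.33) and 8 had an unadjusted p under 0.05. Of all 12578 genes tested there, 37 were called higher and 1218 had an unadjusted p under 0.05. In the neutrophil list 0 of 4 were called, and 2 had an unadjusted p under 0.05, S100a8 (1.05) and S100a9 (0.83). The part of either list in the member values was not tested.

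In some pools most members lay on the same side of their group's means, and in others they were split. In control lard replicate 1, 0 of 8 were below. In control lard replicate 3, control fish/fungal replicate 2 and knockout fish/fungal replicate 1, 4 of 8 were below. Knockout lard replicate 2 lay on average 0.35 below its group's means over the 8 genes, with 6 of 8 below, and knockout canola replicate 2 lay 0.28 below, with 7 of 8. In knockout fish/fungal replicate 3 all 8 were below. Across the 18 arrays, which share the diet groups, Idi1 and Fdps correlated at r = 0.95, Pmvk and Fdps at 0.93, and Hmgcs1 and Idi1 at 0.92. With the group means removed, these values were 0.61, 0.77 and 0.74. Ggps1 had r = -0.26 with the mean of the other members, and 0.38 with group means removed. Fdft1 had 0.59, and -0.05 with group means removed.

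The 8 genes most like the members' mean standardised profile over the 18 arrays were Nsdhl (r = 0.92), Cyp51 (0.92), Rdh11 (0.90), Qdpr (0.89), Arsg, Acacb, D130043K22Rik and Fads1 (0.88 each). Nsdhl and Cyp51 are enzymes of the steps from lanosterol to cholesterol, Acacb is an acetyl-CoA carboxylase, and Fads1 is a fatty acid desaturase. With group means removed, the r values ranged from 0.53 (Acacb) to 0.78 (Nsdhl). Since likeness was measured over these same arrays, their direction between diets follows from the choice, which also favours high r with group means removed. Their changes from lard to fish/fungal ran from -0.26 for Qdpr, which recycles tetrahydrobiopterin, to -3.39 for Fads1. None was called in the averaged knockout effect.

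The other genes of the pathway and its neighbours were read from lists, and their counts stand beside the 1.78% of genes called lower in fish/fungal against lard. Of the enzymes from squalene to cholesterol, 10 of 11 tested were lower, with a list median of -1.03. They included Cyp51 (-1.65, adjusted p = 1.2e-05), Sc5d (-0.89), Msmo1 (-1.08) and Dhcr7 (-1.20), and the one that did not pass was Ebp (-0.18, adjusted p = 0.36). Of the genes that supply acetyl-CoA or use it for ketones, 4 of 5 were lower: Acly, which splits citrate (-1.63), Acss2 (-1.22), the citrate carrier Slc25a1 (-0.59) and Bdh1 (-0.32). Among 12 genes of sterol sensing and uptake, 4 were lower, namely Stard4 (-1.36), Insig1 (-1.25), Srebf1 (-0.97) and Insig2 (-0.75). Srebf2, which encodes SREBP-2, was at -0.20 and did not pass (adjusted p = 0.22).

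Fatty acid synthesis targets of SREBP-1 were lower in 10 of 11 cases (median -1.51), with Fads1 at -3.39, Fads2 at -2.32, Acacb at -2.41 and Fasn, fatty acid synthase, at -2.70. The non-sterol isoprenoid branches, which use the products of Fdps and Ggps1 for dolichol, ubiquinone and prenylated proteins, had 0 of 10 called by limma and 1 with an unadjusted p under 0.05. Their median was 0, and the smallest p values belonged to Dhdds (-0.18, adjusted p = 0.32) and Coq2 (0.11, 0.55). The liver X receptor list had 0 of 7 called and 1 with an unadjusted p under 0.05, Lpcat3 (-0.27, adjusted p = 0.08), with Mylip at 0.17 (0.52). The SREBP-1 and post-squalene lists had lower medians than the mevalonate arm, a difference that was not tested.

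**Figure D4:**
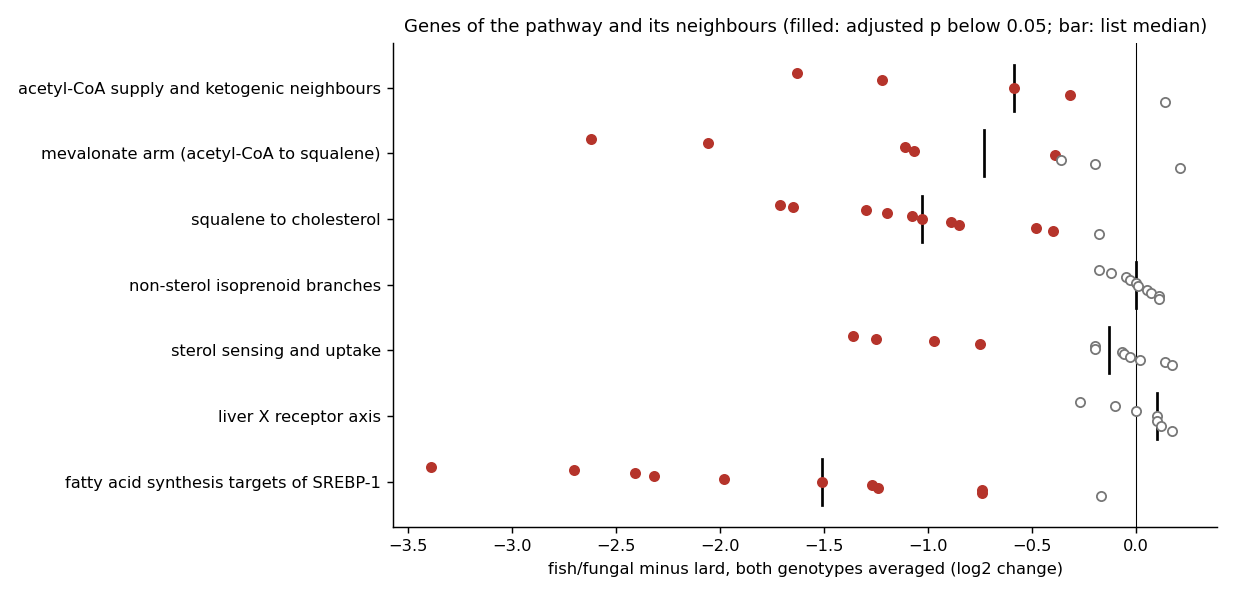
Log2 change from lard to fish/fungal (horizontal axis, genotypes averaged) of each tested gene in the mevalonate arm and 6 neighbouring lists (vertical axis). Filled points have an adjusted p under 0.05 and black bars are list medians. The mevalonate arm spreads from -2.62 (Fdps) to 0.21 (Ggps1), and the non-sterol isoprenoid genes lie between -0.18 and 0.11.

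Against canola, the fish/fungal diet gave lower levels of 7 of 11 post-squalene genes (Tm7sf2 -0.77, Cyp51 -1.08, Dhcr7 -0.89 and Sc5d -0.53 among them), of Stard4 (-1.06) and Insig1 (-0.92), of Bdh1 (-0.42) and of 6 of 11 SREBP-1 targets, where 0.692% of genes were called lower. Fads1 was at -2.99 there, Fads2 at -2.03, Acacb at -1.79 and Fasn at -1.87. Neither the liver X receptor list (Abcg5 0.44, adjusted p = 0.12) nor the isoprenoid list (Dhdds -0.13, 0.68) had a called gene by limma. An unadjusted p under 0.05 was found for 5 of 7 liver X receptor genes (median 0.28) and 0 of 10 isoprenoid genes (median 0.01). Of all 12578 genes tested, 1218 had such a p in that comparison. In canola against lard no gene of these lists was called, nor any of the 12578. The smallest p in the lists belonged to Lbr (-0.46, adjusted p = 0.22). An unadjusted p under 0.05 was found for 6 of 11 post-squalene genes, 4 of 7 liver X receptor genes and 4 of 11 SREBP-1 targets. It was also found for 2 of 5 acetyl-CoA genes, 2 of 12 sterol sensing genes and 0 of 10 isoprenoid genes, against 6.77% of all genes. All 11 post-squalene genes were below 0. In the knockout effect averaged over diets, 4.57% of all genes were called by limma. Of 11 post-squalene genes, 1 was called, the sterol reductase Tm7sf2, which was lower (-0.33, adjusted p = 0.049). Of 12 genes of sterol sensing and uptake, 1 was lower, the sterol carrier Stard4 (-0.35, 0.023). In that list 1 was higher, Insig2, which holds SREBP in the endoplasmic reticulum (0.52, 0.02). Of the lists without a called gene, Acly was at -0.47 (0.17), Fads1 at -0.37 (0.2), Lpcat3 at 0.19 (0.087) and Coq2 at 0.17 (0.096).

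**Figure D5:**
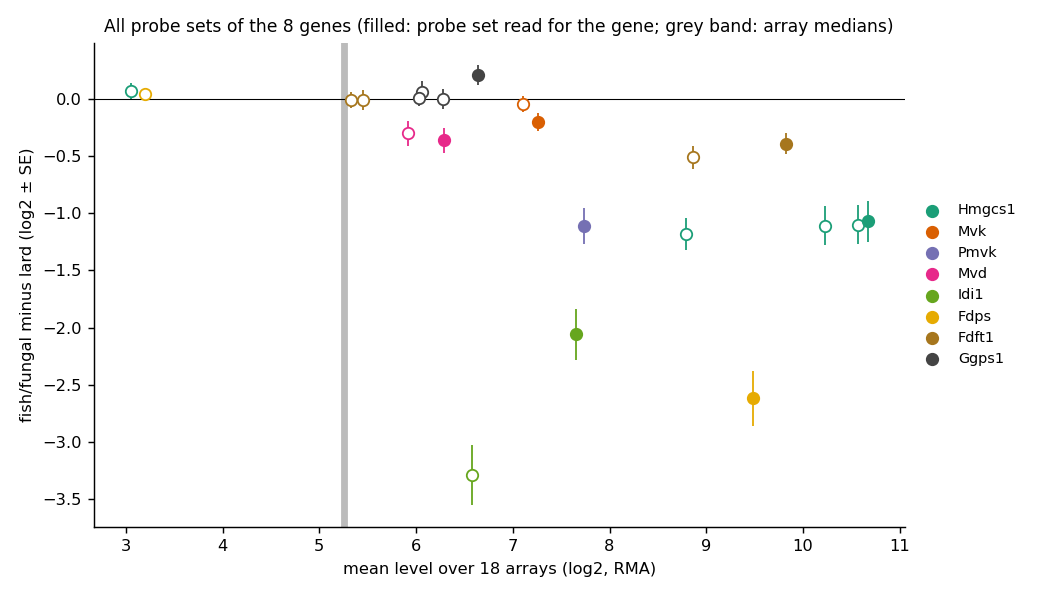
Change from lard to fish/fungal (vertical axis, log2 ± SE) of all 22 probe sets of the 8 genes against their mean level over 18 arrays (horizontal axis). Filled points are the probe sets read for each gene and the grey band is the range of array medians. The 2 probe sets left of the band, of Hmgcs1 and Fdps, are at 0.07 and 0.04.

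Other probe sets of the same genes gave a second reading within the same arrays. For Hmgcs1, 3 further bright probe sets changed by -1.10, -1.11 and -1.18 against -1.07 for the one used, and a dim one, above the array median on 0 arrays, was at 0.07. The second Idi1 probe set changed by -3.29, against -2.06 for the one used. It was above the array median on 12 of 18 arrays, and the one used on all 18. For Fdps the second probe set was above the median on 0 arrays and at 0.04. Fdft1 had a second bright probe set at -0.51 (adjusted p = 0.016 over all probe sets) and a pair near the median level at -0.01 each. The second probe set of Mvk was at -0.04 and that of Mvd at -0.30, and the 3 further probe sets of Ggps1 were at 0.00, 0.06 and 0.01.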

How the data were processed

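Expression was measured on 18 Affymetrix Mouse Genome 430 2.0 arrays, 3 pools of RNA for each of 6 groups taken from the sample labels. The deposited log2 values had been made with RMA by the authors, per the submitters' processing notes, with the version not given in the sources used here. RMA's quantile step removes global shifts between arrays. Probe sets were named from GEO's platform annotation: of 45101, 34945 had 1 gene symbol, 932 several and 9160 none, besides 64 controls, and 34741 were matched by gene ID to the RefSeq table. Each gene was represented by its brightest probe set (highest mean of 18 arrays) and tested if that exceeded the array median in at least 3 arrays, which left 12578 of 18193 genes.

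A single fit of 6 group means with limma 3.58.1 in R 4.3.3 (intensity trend on) gave all contrasts, with two-sided p-values, Benjamini-Hochberg adjustment over all genes tested and a threshold of 0.05. Errors of changes are standard errors, and intervals are 95%. No pair of arrays was identical. Deviations of same-numbered arrays from their group means had a median r of -0.01 over 45 pairs of arrays, 17 of them above 0.1. Arrays with different numbers had a median of -0.04 over 90 pairs, 27 of them above 0.1. With medians this close, numbers were not taken to pair samples. Named genes were every member, up to 4 called members of each other list with the smallest adjusted p (or up to 2 as values where none passed), and the 8 genes most like the members. The members and lists were chosen with earlier results of these data known. Alternatives were repeated quantile normalization, median centring, other filters and probe set rules, array weights, a fit without the trend, a fit of only the groups compared, replicate number as a block, and each array left out in turn. Readings of every probe set of a member were added after seeing the data. The scripts were tested on simulated data.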

Additional observations from a re-analysis of the deposited data

How the results depend on the processing

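The counts of called members stayed at 0 under all 28 alternatives for the knockout effect (averaged and within each diet), for canola against lard and for the interaction. They ranged from 4 to 5 for fish/fungal against lard averaged over genotypes and from 2 to 4 in controls. In knockouts, fish/fungal against lard gave 0 with only the groups compared, and 1 to 4 without each array. Fish/fungal against canola averaged over genotypes gave 2 to 4, in controls 0 to 2 without each array, and in knockouts 0 with only the groups compared, 0 with the replicate block and 0 to 2 without each array. Over the 28 alternatives in knockouts, Fdps lost its call in 17 and Idi1 gained one in 3. The gene behind a count of 1 there was therefore not always Fdps. The replicate block ended the calls of Fdft1 in fish/fungal against lard (adjusted p = 0.056), of Hmgcs1 in fish/fungal against canola (0.052) and of Fdps in fish/fungal against canola in knockouts (0.089), and replicate numbers alone do not pair these samples. Repeated quantile normalization (-0.35, 0.057) and only the groups compared (0.058) also ended the Fdft1 call. The mean of all probe sets gave Fdps -1.29, Idi1 -2.68 and Fdft1 -0.23 in fish/fungal against lard, all still called; for Fdps and Fdft1 it includes probe sets of small change. Directions turned for uncalled values of Hmgcs1 without control canola replicate 2 (0.07 for knockout within canola, where leaving out arrays gave -0.50 to 0.07, and -0.35 for canola against lard in controls, with -0.35 to 0.23). Leaving out 1 array also turned Idi1 for knockout within lard (-0.44 to 0.20) and within fish/fungal (-0.37 to 0.19) and Pmvk within canola (-0.35 to 0.09). Further uncalled values near 0 changed sign too. Ggps1 stood at -0.05 in fish/fungal against lard in knockouts without probe sets prone to cross-hybridization, and at 0.13 in fish/fungal against canola in controls without control fish/fungal replicate 1 (leaving out arrays gave -0.13 to 0.13). Among the other probe sets, fish/fungal against lard turned to 0.07 (Hmgcs1) and 0.04 (Fdps). Canola against lard turned to 0.12 (Hmgcs1), 0.04 (Fdps), 0.13 (Fdft1), and -0.09 and -0.16 (Ggps1). The cause of these changes was not tested. With 3 pools a group, the precision of each value rests on few arrays.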
